A study of Mus musculus with 4 samples.

Results

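The proteasome genes were the 50 genes whose symbol begins with Psm, a letter from a to g and a digit, out of 17823 genes that had values in whole blood of aging mice. Of these 50, 40 reached a mean of at least 0.5 FPKM over the 4 libraries and were tested, and 10 did not. FPKM counts fragments per transcript length and per library size, so it is a share of a library and not an amount of RNA per volume of blood. All mice were C57BL/6, called adult in the sample labels and 12 months old in the study's methods. Nar mice received naringenin, a citrus flavonoid, at 20 mg/kg into the tail vein for 30 days, and control mice received PBS. Each group had 2 libraries of poly(A) RNA, Ctrl 1 and Ctrl 3 against Nar 1 and Nar 3, so the comparison asked how Nar changed blood transcripts. The sources do not say whether a library is 1 animal, and p-values therefore measure only the spread between these libraries.

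The proteasome cuts proteins that carry ubiquitin chains. Its barrel, the 20S core, is built of alpha rings that gate the entrance and beta rings that hold the catalytic sites, and the 19S particle on its end recognises, unfolds and feeds in the substrate through a base with ATPases and a lid that removes ubiquitin. In immune cells and under interferon-gamma, the catalytic subunits Psmb5, Psmb6 and Psmb7 are replaced by Psmb8, Psmb9 and Psmb10, which gives the immunoproteasome and favours peptides that fit MHC class I molecules. Mature red cells have lost most of their organelles and RNA, and reticulocytes, their immediate precursors, use the ubiquitin system while they clear remaining proteins.

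Haemoglobin genes held between 92.6% and 96.4% of each library's summed FPKM. The median tested gene stood at 1.85 and 1.97 FPKM in the control libraries and at 0.89 and 0.74 FPKM in the Nar libraries. Over the 5339 tested genes, limma called 2113 lower and 10 higher with Nar at a Benjamini-Hochberg adjusted p under 0.05, and the median of their log2 fold changes was -1.07. Changes of proteasome genes are therefore given also relative to this median, by a second fit in which each library was divided by its median ratio to the others (median-of-ratios scaling), where the median over all tested genes was -0.06. In bulk blood, fewer cells of a type and less RNA per cell cannot be told apart.

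Proteasome transcripts were lower with Nar to about the same extent as the median gene. Here and below, genes are counted as having fallen or risen only where limma called them at an adjusted p under 0.05. Of the 40 tested members, 17 (42.5%) fell and 0 rose, beside 39.6% of all tested genes called lower and 0.187% called higher, and at an unadjusted p under 0.05 the counts were 24 lower and 0 higher. For 34 members both Nar values were below both control values, and for 0 they were above both, where the shares over all tested genes were 78.3% and 1.27%. The median log2 fold change of the 40 was -1.08, and 20 of them were further down than the median gene, a point that by definition holds 50.0% of all tested genes below it. After median-of-ratios scaling, limma called 0 of the 40, with 2 at an unadjusted p under 0.05 and a smallest adjusted p of 0.226, beside 0.356% of all genes called lower and 0.112% called higher. Leaving out any 1 of the 4 libraries left 0 or 1 members called lower, while the members' median stayed between -1.20 and -0.93. Such smaller designs called few genes of any kind, 0 of 5339 without Ctrl 1 or without Ctrl 3, 259 without Nar 1 and 213 without Nar 3.

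**Figure D1:**
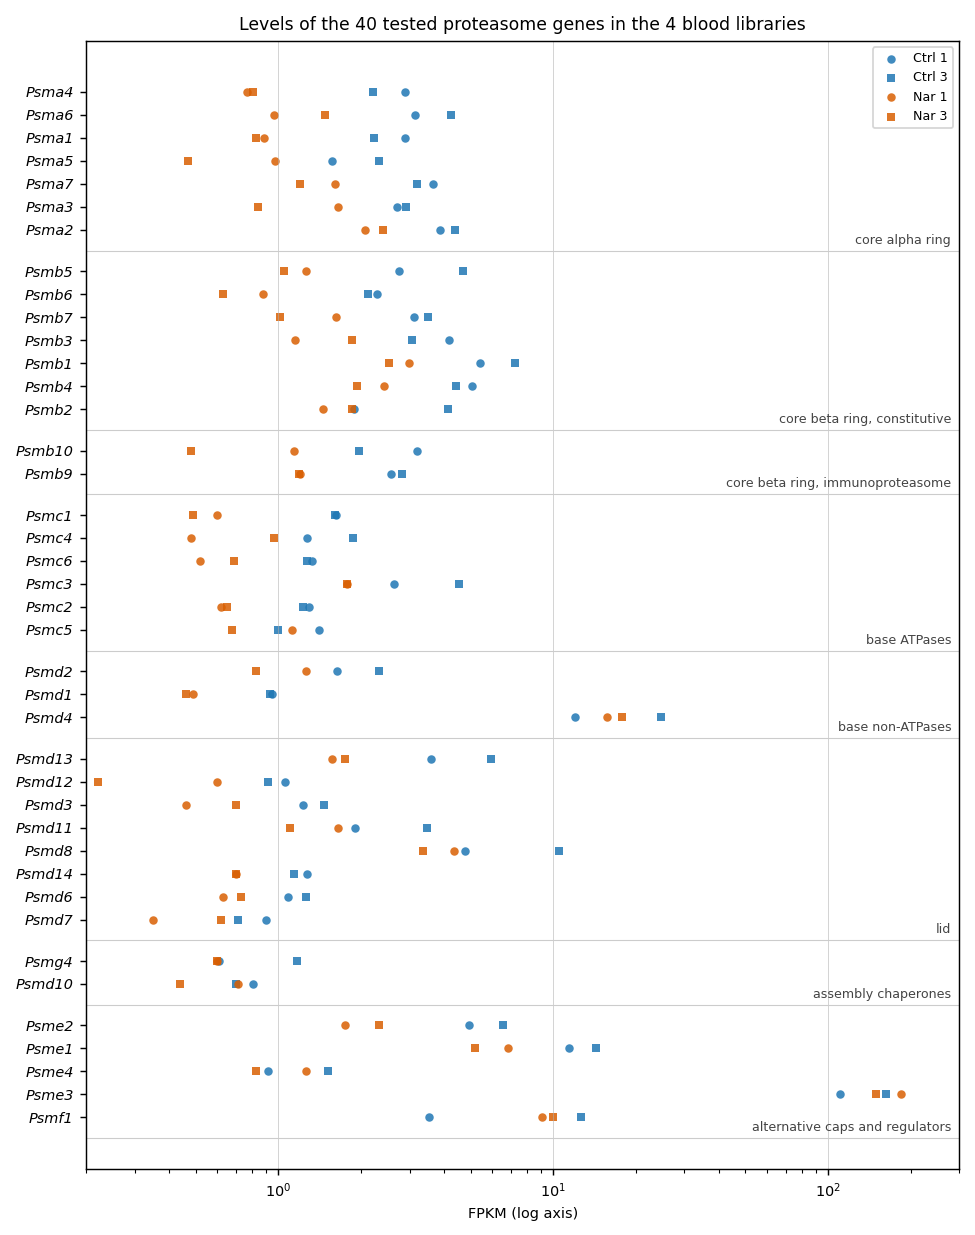
FPKM of the 40 tested proteasome genes on a log axis, by subcomplex, with controls in blue, Nar in orange, circles for libraries 1 and squares for libraries 3. The Nar points lie to the left for 34 members, while Psme3 stands above 100 FPKM in all 4 libraries and its points, like those of Psmd4 and Psmf1, are mixed between groups.

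The fall was uneven along the particle. In the 20S core, 12 of 16 tested members (75%) fell, with a median log2 fold change of -1.27, and 14 of the 16 were further down than the median gene. In the 19S particle, 4 of 17 tested members (23.5%) fell, with a median of -0.88, and 4 of the 17 were further down than the median gene. The 17 leave out Sem1, a small lid subunit, and Adrm1, a ubiquitin receptor on the 19S particle, which lie outside the symbol pattern. Both of these fell (log2 fold change -2.58 and -1.23) and were further down than the median gene. Under median-of-ratios scaling these counts of members below the median gene were 12 of 16 and 4 of 17, and without Ctrl 1, where the 2 sets came closest, they were 11 and 7. Of all tested genes 39.6% were called lower, and after median-of-ratios scaling limma called 0 members of either set, with 0 also at an unadjusted p under 0.05. As deposited, both Nar libraries were below both controls for all 16 core members and for 15 of the 17 19S members, beside 78.3% of all tested genes. The difference between the counts of the 2 sets was not tested.

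A contrast within each library, which does not depend on how libraries are scaled except through the pseudocount, gave the same order. The mean log2(FPKM + 0.1) of the 14 constitutive core members exceeded that of the 17 19S members by 0.77 in Ctrl 1 and 0.64 in Ctrl 3, and by 0.39 in Nar 1 and 0.26 in Nar 3. Both Nar values lay below both control values, and the groups differed by -0.38. Sem1 and Adrm1 are not among the 17. Their log2 fold changes of -2.58 and -1.23, beside a 19S median of -0.88, would make this difference smaller, by an amount that was not computed. Core minus lid differed by -0.32 and core minus base by -0.44 between Nar and control, while lid minus base differed by -0.12. Core transcripts thus stood above 19S transcripts per length in all 4 libraries, and the lead was smaller in both Nar libraries. No p is given, because the members of a set are not replicates and the sets were chosen with results of these data known.

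**Figure D2:**
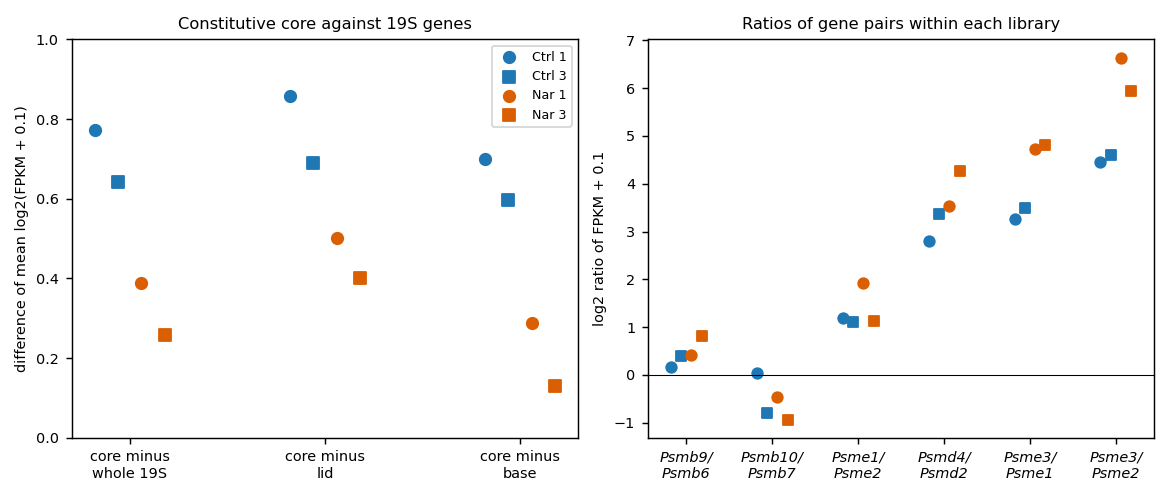
Left, the difference of mean log2(FPKM + 0.1) between the constitutive core and the 19S particle, its lid or its base, with 1 point per library (controls blue, Nar orange). Sem1 and Adrm1 are not included, and both Nar points lie below both control points in all 3. Right, log2 ratios of FPKM + 0.1 for 6 gene pairs within each library, in which Psme3 over Psme1 and over Psme2 are higher in both Nar libraries and Psmb10 over Psmb7 is mixed.

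The sequence upstream of 5 members is shown: Psmb5 and Psmb6, which fell, and Psme3, Psmd4 and Psmf1, whose groups overlapped. Members with lower log2 fold changes than these are not shown. Windows are the 250 bases before the RefSeq start (GRCm38.p6), 5′ to 3′ on the gene's strand, and capitals mark a motif match. The windows are chr14:54617996-54618245 (minus strand) for Psmb5, chr11:70525107-70525356 (plus) for Psmb6, chr3:95042615-95042864 (minus) for Psmd4, chr11:101315963-101316212 (plus) for Psme3 and chr2:151741311-151741560 (minus) for Psmf1, where the Psmf1 window lies inside the longer gene that GENCODE annotates and the Psmb5 window holds 27 annotated exon bases at its end.
Psmb5: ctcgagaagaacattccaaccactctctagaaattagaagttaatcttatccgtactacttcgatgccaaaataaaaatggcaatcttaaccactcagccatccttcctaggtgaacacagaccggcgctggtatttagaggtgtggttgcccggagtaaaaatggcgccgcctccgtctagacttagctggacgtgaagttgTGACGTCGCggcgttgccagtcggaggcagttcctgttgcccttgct
Psmb6: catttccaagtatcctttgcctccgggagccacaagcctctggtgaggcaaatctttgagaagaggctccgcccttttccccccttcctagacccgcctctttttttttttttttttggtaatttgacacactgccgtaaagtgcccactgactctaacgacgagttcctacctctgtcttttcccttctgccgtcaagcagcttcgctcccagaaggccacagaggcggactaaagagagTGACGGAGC
Psmd4: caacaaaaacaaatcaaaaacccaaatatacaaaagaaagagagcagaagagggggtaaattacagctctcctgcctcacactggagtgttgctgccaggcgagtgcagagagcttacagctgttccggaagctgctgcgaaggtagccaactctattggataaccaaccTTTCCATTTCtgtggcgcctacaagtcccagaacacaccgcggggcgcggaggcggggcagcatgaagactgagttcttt
Psme3: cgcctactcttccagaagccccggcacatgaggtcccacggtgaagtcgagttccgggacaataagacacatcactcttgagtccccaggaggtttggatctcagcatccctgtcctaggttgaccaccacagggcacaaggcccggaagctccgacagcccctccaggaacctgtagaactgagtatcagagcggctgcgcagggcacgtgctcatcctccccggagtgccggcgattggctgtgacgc
Psmf1: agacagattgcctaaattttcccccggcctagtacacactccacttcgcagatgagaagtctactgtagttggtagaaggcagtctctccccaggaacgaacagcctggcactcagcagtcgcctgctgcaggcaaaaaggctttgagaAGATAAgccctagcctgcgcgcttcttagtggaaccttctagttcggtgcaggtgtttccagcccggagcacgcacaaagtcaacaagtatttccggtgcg

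The windows of 42 members were searched on both strands for 3 sets of letters, the 8 others having no window in the table used. TGACNNNGC, the core of the antioxidant response element that the Nfe2l1 and Nfe2l2 factors bind and that overlaps AP-1 sites, was found in 5 of 42 members (Psmb5, Psmb6, Psmc6, Psmd12 and Psmd9), beside 10.15% of all 27025 windows. A pair of GAAA with 2 bases between them, a core of interferon-stimulated elements, was found in 3 members (Psmb3, Psmd4 and Psmd9), beside 3.04% of all windows. AGATAA, a form of the GATA site of erythroid genes, was found in 2 members (Psmf1 and Psmd9), beside 10.25% of all windows. The capitals thus mark TGACNNNGC in Psmb5 and Psmb6, the GAAA pair on the other strand in Psmd4 and AGATAA in Psmf1, and Psme3 held none of the 3. Psmb10 and Psma4, with lower log2 fold changes (-1.62 and -1.56) than Psmb5 and Psmb6, also held none. A link between motifs and changes was not tested. These are matches of letters and not measured binding.

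In the alpha ring, the outer gate of the core, 6 of 7 tested members fell, beside 39.6% of all tested genes, and the median log2 fold change was -1.37, or -0.36 after median-of-ratios scaling, where limma called 0 of the 7. Psma4 had 2.89 and 2.21 FPKM in Ctrl 1 and Ctrl 3 and 0.77 and 0.81 FPKM in Nar 1 and Nar 3. The groups were far apart, and its log2 fold change of -1.56 ± 0.35 (SE; limma adjusted p = 0.0177) was the lowest of the ring. Psma2, the most abundant alpha transcript, had 3.87 and 4.39 FPKM in the controls and 2.07 and 2.4 FPKM with Nar. Its groups did not overlap, but its log2 fold change of -0.86 ± 0.40 did not pass the test (limma adjusted p = 0.101) and was 0.22 after median-of-ratios scaling. The other 5 tested members, Psma1, Psma3, Psma5, Psma6 and Psma7, fell by between 1.18 and 1.54 on the log2 scale. Psma8, the testis form that replaces Psma7, was listed at 0 in all 4 libraries.

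The constitutive beta ring had 4 of 7 members that fell, beside 39.6% of all tested genes, a median log2 fold change of -1.23 and -0.16 after median-of-ratios scaling. Its 3 catalytic members were all among the 4. Psmb5, the chymotrypsin-like subunit (minus strand, chr14:54614119-54618022 in GRCm38), had 2.75 and 4.68 FPKM in the controls and 1.26 and 1.05 FPKM with Nar. Both Nar values were well below both control values, and the log2 fold change was -1.56 ± 0.41 (limma adjusted p = 0.0247). Psmb6, the caspase-like subunit (chr11:70525367-70527858, plus strand), had 2.29 and 2.11 FPKM against 0.88 and 0.63 FPKM, a log2 fold change of -1.44 ± 0.35 (limma adjusted p = 0.0209). Psmb7, the trypsin-like subunit, had 3.12 and 3.5 FPKM against 1.62 and 1.01 FPKM, a log2 fold change of -1.30 ± 0.40 (limma adjusted p = 0.0350). Relative to the median gene, by median-of-ratios scaling, the 3 changes were -0.51, -0.42 and -0.25, and none passed the test. Small parts of the exons of Psmb5 (12.1%, Mir686) and Psmb7 (11.8%, Nek6) overlap other genes.

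The other 4 members of this ring are structural. Psmb3 fell by 1.23 on the log2 scale (limma adjusted p = 0.0458). Psmb1, the most abundant constitutive beta transcript, had 5.42 and 7.26 FPKM in the controls and 2.98 and 2.52 FPKM with Nar (log2 fold change -1.17 ± 0.43, limma adjusted p = 0.0569), and Psmb4 had a log2 fold change of -1.09 (adjusted p = 0.0585). Psmb2 had 1.89 and 4.14 FPKM in the controls and 1.45 and 1.86 FPKM with Nar. Nar 3 and Ctrl 1 were nearly equal for Psmb2, and its log2 fold change of -0.74 ± 0.46 did not pass the test (limma adjusted p = 0.188) and was -1.28 without Ctrl 1 and -0.19 without Ctrl 3.

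**Figure D3:**
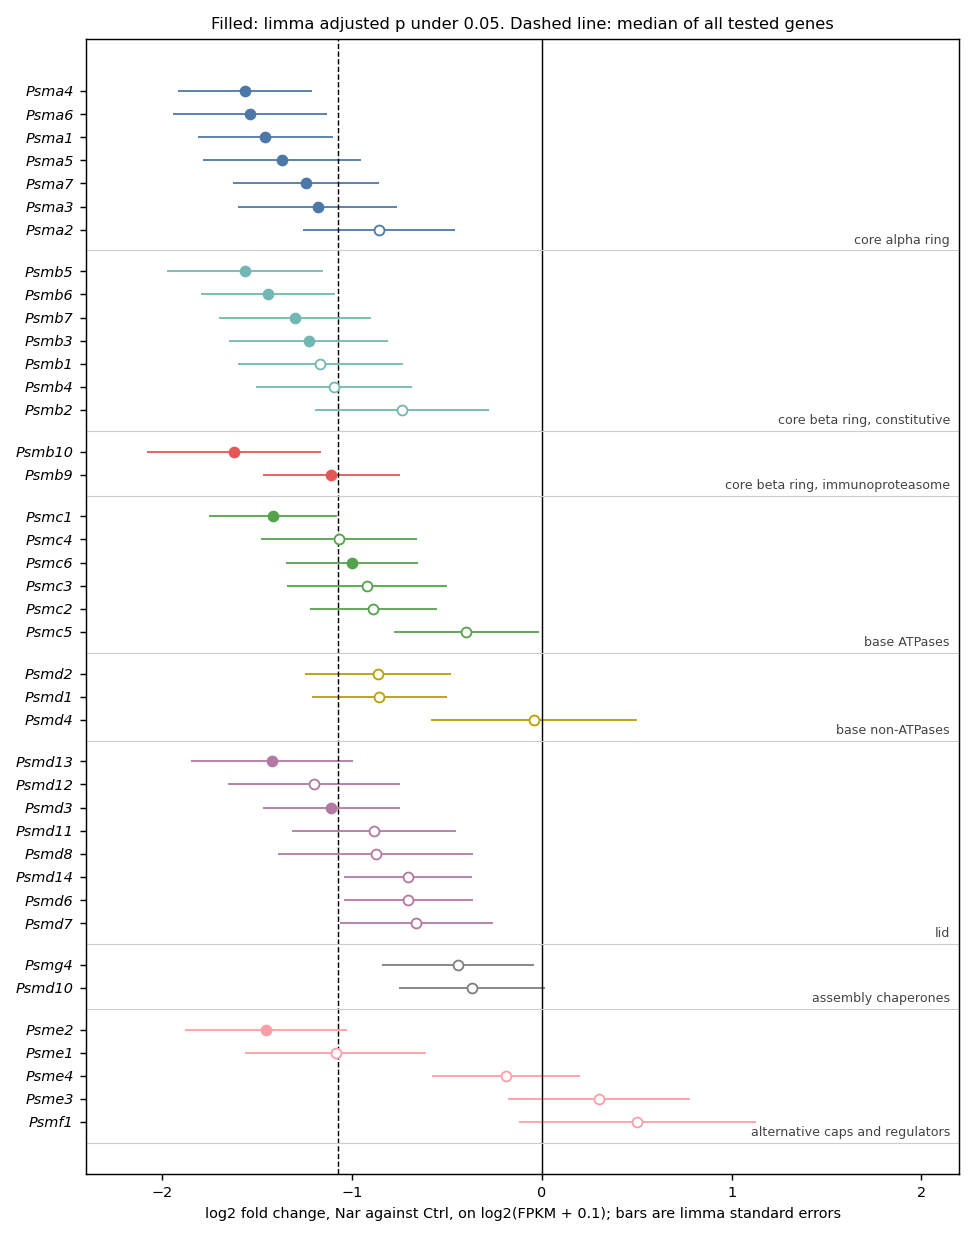
Log2 fold change of Nar against control for each tested member, by subcomplex, with bars of 1 SE from limma, filled points for an adjusted p under 0.05 and a dashed line at the median of all tested genes (-1.07). Core members lie mostly left of the line and 19S members mostly right of it, and Psme3 and Psmf1 are the 2 members above 0.

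Of the immunoproteasome subunits, Psmb9 and Psmb10 were measured and both fell, like the constitutive subunits they replace and 39.6% of all tested genes. Psmb9 (chr17:34181987-34187764, minus strand), which takes the place of Psmb6, had 2.57 and 2.82 FPKM in the controls and 1.2 and 1.19 FPKM with Nar. The libraries of each group were close to each other and the groups far apart, with a log2 fold change of -1.11 ± 0.36 (limma adjusted p = 0.0403). Psmb10 (chr8:105935735-105938444, minus strand), which takes the place of Psmb7, had 3.19 and 1.97 FPKM against 1.14 and 0.48 FPKM. Its libraries were more spread but did not overlap, and its log2 fold change of -1.62 ± 0.46 was the lowest of all 40 tested members (limma adjusted p = 0.0285). After median-of-ratios scaling the values were -0.06 for Psmb9 and -0.60 for Psmb10, and neither passed the test.

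Psmb8 (Gene ID 16913), which takes the place of Psmb5, was listed at 0 in all 4 libraries. In GRCm38 it lies at chr17:34197721-34201454 on the plus strand inside the MHC, 495 bases from the end of Tap1 and 2072 bases before the start of Tap2, both of which carry peptides into the endoplasmic reticulum for MHC class I. Tap1 had between 1.11 and 5 FPKM and Tap2 between 0.72 and 3.37 FPKM, so the neighbours on both sides had values. Of the exon bases of Psmb8, 14.7% overlap an annotated gene on the opposite strand (Gm20496), and of those of Psmb9, 5.79% overlap Tap1. Whether fragments were counted by strand is not given in the sources used here, and an exact 0 in a file without counts can be a failed estimate, so no fold and no absence is given for Psmb8. Psmb11, the thymus form, had 0.04, 0, 0.05 and 0 FPKM and was not tested.

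Ratios within a library set each immunoproteasome subunit against the one it replaces. Psmb9 over Psmb6 was 1.12 and 1.34 in the controls and 1.36 and 1.89 with Nar, and both Nar ratios were above both control ratios. The log2 ratio was 0.28 ± 0.17 in the controls and 0.61 ± 0.29 with Nar (SD, n = 2 each), a difference of 0.33 (exact permutation test, two-sided, p = 0.333). Psmb10 over Psmb7 was 1.02 and 0.563 in the controls and 0.704 and 0.475 with Nar, and these groups overlapped. Its log2 ratio was -0.38 ± 0.59 and -0.70 ± 0.33, a difference of -0.32 (exact permutation test, p = 0.667) that turned to 0.09 without Ctrl 1. With 2 libraries against 2 the smallest two-sided p is 0.333, and after adjustment over 7 ratios computed the exact permutation values were 0.467 and 0.667. The pair Psmb8 and Psmb5 gave no ratio, since Psmb8 was listed at 0.

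The ATPases of the base, which unfold the substrate, had 2 of 6 members that fell, near the 39.6% of all tested genes, a median log2 fold change of -0.96 and 0.05 after median-of-ratios scaling. Psmc1 had 1.62 and 1.61 FPKM in the controls and 0.6 and 0.49 FPKM with Nar, giving a log2 fold change of -1.42 ± 0.34 (limma adjusted p = 0.0201). It was the only ATPase further down than the median gene. Psmc6 also fell, from 1.33 and 1.27 FPKM to 0.52 and 0.69 FPKM (limma adjusted p = 0.0470). Psmc2 and Psmc4 came close to the threshold, with log2 fold changes of -0.89 and -1.07 (limma adjusted p = 0.0597 and 0.0623). Psmc3, the most abundant of the 6, had 2.63 and 4.54 FPKM against 1.78 and 1.78 FPKM (log2 fold change -0.92 ± 0.42, limma adjusted p = 0.0963). Psmc5 had 1.4 and 1 FPKM against 1.12 and 0.68 FPKM, the only ATPase whose groups overlapped (log2 fold change -0.40 ± 0.38, limma adjusted p = 0.373; 0.61 after median-of-ratios scaling).

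Among the 3 non-ATPases of the base, 0 were called by limma, beside 39.6% of all tested genes called lower, and 1 was lower at an unadjusted p under 0.05. Psmd1 and Psmd2, the scaffold subunits, had log2 fold changes of -0.86 and -0.86 (limma adjusted p = 0.0745 and 0.0887), with Psmd2 at 1.63 and 2.32 FPKM in the controls and 1.26 and 0.83 FPKM with Nar. Psmd4, the ubiquitin receptor Rpn10 (chr3:95032694-95042614, minus strand), was the most abundant 19S transcript, with 12.04 and 24.7 FPKM in the controls and 15.7 and 17.9 FPKM with Nar. Both Nar values lay between the control values. Its log2 fold change was -0.04 ± 0.54 (limma adjusted p = 0.947) and 1.06 after median-of-ratios scaling (adjusted p = 0.460), and it was -0.56 without Ctrl 1 and 0.47 without Ctrl 3. Psmd4 over Psmd2 within a library was 7.39 and 10.7 in the controls and 12.5 and 21.5 with Nar, a log2 difference of 0.82 (exact permutation test, p = 0.333, the smallest possible; this ratio was chosen after the values were seen).

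In the lid, limma called 2 of 8 members lower, beside 39.6% of all tested genes. The median log2 fold change was -0.88, or 0.19 after median-of-ratios scaling. Both Nar libraries were below both controls for all 8 members as deposited, as they were for 78.3% of all tested genes. Psmd13 had 3.58 and 5.91 FPKM in the controls and 1.57 and 1.75 FPKM with Nar, which gave a log2 fold change of -1.42 ± 0.43 (limma adjusted p = 0.0331), with 10.1% of its exon bases overlapping Sirt3. Psmd3 fell by 1.11 on the log2 scale (limma adjusted p = 0.0406). Psmd8, the most abundant lid transcript of the symbol pattern, had 4.79 and 10.5 FPKM against 4.37 and 3.36 FPKM, with Ctrl 3 far above the other 3 libraries (log2 fold change -0.87 ± 0.51, limma adjusted p = 0.167). Psmd14, the deubiquitinase of the lid, had 1.27 and 1.14 FPKM against 0.7 and 0.7 FPKM (log2 fold change -0.70 ± 0.34, limma adjusted p = 0.106). Psmd7, its partner subunit, had the smallest change of the lid, with 0.9 and 0.71 FPKM against 0.35 and 0.62 FPKM (log2 fold change -0.66 ± 0.40, limma adjusted p = 0.180). The other 3 lid members, Psmd6, Psmd11 and Psmd12, had log2 fold changes of -0.70, -0.88 and -1.20, none past the threshold (limma adjusted p = 0.110, 0.111 and 0.0590).

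The alternative caps and regulators, which open the core in place of the 19S particle or restrain it, had the widest range of the subcomplexes, with log2 fold changes from -1.45 to 0.50. Limma called 1 of 5 lower, beside 39.6% of all tested genes. Psme3, or PA28-gamma (chr11:101316213-101323537, plus strand), a nuclear cap that works without ATP or ubiquitin, had 110.5 and 162 FPKM in the controls and 184 and 149 FPKM with Nar. The groups overlapped, and the log2 fold change was 0.30 ± 0.48 (limma adjusted p = 0.587) and 1.41 after median-of-ratios scaling (limma adjusted p = 0.226). It ranked 97th in the control mean and 54th in the Nar mean among the 17823 genes with values. Psme3 alone made up 48.95% and 50.50% of the summed FPKM of all 50 members in Ctrl 1 and Ctrl 3, and 70.41% and 66.60% in Nar 1 and Nar 3. Without it, the members' summed FPKM was 115.2 and 159 in the controls and 77.2 and 74.6 with Nar, while with it the sum was 226 and 322 against 261 and 223, and the groups overlapped. As a share of the summed FPKM of all genes but haemoglobin, the 50 members made up 0.302% and 0.294% in the controls and 0.395% and 0.392% with Nar, a measure that was not tested. Without Psme3 the order turned, to 0.154% and 0.146% in the controls and 0.117% and 0.131% with Nar.

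Psme1 and Psme2 encode PA28-alpha and PA28-beta, which form the interferon-inducible cap and lie within 5911 bases of each other on chromosome 14. Psme1 had 11.4 and 14.3 FPKM in the controls and 6.86 and 5.17 FPKM with Nar, with no overlap, but did not pass the test (log2 fold change -1.09 ± 0.48, limma adjusted p = 0.0859). Psme2 had 4.95 and 6.55 FPKM against 1.74 and 2.33 FPKM and fell (log2 fold change -1.45 ± 0.43, limma adjusted p = 0.0314). The ratio of Psme3 to Psme1 was 9.71 and 11.4 in the controls and 26.8 and 28.8 with Nar, and that of Psme3 to Psme2 was 22.3 and 24.8 against 105.6 and 63.8. Neither ratio overlapped between groups, with log2 differences of 1.39 and 1.76 (exact permutation test, p = 0.333 each, the smallest possible; both ratios were chosen after the values were seen). Values of Psme2 are uncertain, because its retrocopy Psme2b is 99.4% identical to it over 794 aligned bases and could share its reads. Psme2b itself was listed at 0.69, 0.56, 0 and 0.13 FPKM and was not tested.

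Psme4, the cap PA200, had 0.92 and 1.51 FPKM in the controls and 1.26 and 0.83 FPKM with Nar, and its groups overlapped (log2 fold change -0.19 ± 0.39, limma adjusted p = 0.679). Psmf1, the inhibitor PI31 (chr2:151715812-151744186, minus strand), had 3.54 FPKM in Ctrl 1, 12.6 FPKM in Ctrl 3, 9.1 FPKM in Nar 1 and 10.0 FPKM in Nar 3. The 2 controls thus stood on either side of the Nar libraries. Its log2 fold change was 0.50 ± 0.62 (limma adjusted p = 0.488), -0.40 without Ctrl 1 and 1.60 after median-of-ratios scaling (limma adjusted p = 0.318).

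The assembly chaperones were rare transcripts. Of 7, only Psmg4 and Psmd10 were tested, and 0 were called by limma or passed an unadjusted p under 0.05. Of all tested genes 39.6% were called lower. Psmg4, a chaperone of the core, had 0.61 and 1.17 FPKM in the controls and 0.6 and 0.6 FPKM with Nar (log2 fold change -0.44 ± 0.40, limma adjusted p = 0.348). Psmd10, a chaperone of the base, had 0.81 and 0.7 FPKM against 0.71 and 0.44 FPKM (log2 fold change -0.37 ± 0.39, limma adjusted p = 0.414). The other 5 had low values in all 4 libraries. Psmd5 had 0.49 and 0.52 FPKM in the controls and 0.25 and 0.23 FPKM with Nar, Psmd9 lay between 0.21 and 0.39 FPKM, Psmg2 between 0.12 and 0.34 FPKM, Psmg3 between 0.05 and 0.21 FPKM and Psmg1 between 0.01 and 0.22 FPKM. Psmc3ip, a meiotic recombination factor that the symbol pattern also takes, was at or below 0.04 FPKM.

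Proteasome partners outside the symbol pattern, 15 of them tested, included 7 that fell, a share near the 39.6% of all tested genes, and 0 that rose (0 also at an unadjusted p under 0.05), with a median log2 fold change of -0.95. After median-of-ratios scaling the median was 0.05, and limma called 0 with 4 at an unadjusted p under 0.05. Sem1, the small lid subunit, had 10.1 and 12.4 FPKM in the controls and 2.03 and 1.57 FPKM with Nar, a decrease larger than that of any of the 40 tested members (log2 fold change -2.58 ± 0.44, limma adjusted p = 0.00723). The call was lost after median-of-ratios scaling (log2 fold change -1.50, limma adjusted p = 0.151) and with each library left out in turn (log2 fold change from -2.755 to -2.404, limma adjusted p from 0.0595 to 0.101). It held with haemoglobin genes removed (log2 fold change -2.08, limma adjusted p = 0.00796). Pomp, the maturation factor that closes core assembly, had 5.11 and 6.53 FPKM against 2.28 and 1.38 FPKM (log2 fold change -1.65 ± 0.44, limma adjusted p = 0.0251), a call lost in all 3 of these kinds of setting (log2 fold change -0.57 after median-of-ratios scaling). Nfe2l1, the factor that raises proteasome genes when the proteasome is blocked, had 0.93 and 0.91 FPKM against 0.59 and 0.36 FPKM (log2 fold change -0.86, limma adjusted p = 0.0894).

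Of 11 tested genes of antigen presentation and interferon signalling, which use or induce the immunoproteasome, 10 fell, with a median log2 fold change of -1.74. Both Nar libraries were below both controls for all 11, and all 11 were further down than the median gene. Over all tested genes, 39.6% were called lower and 78.3% were lower without overlap. After median-of-ratios scaling the median was -0.66, and limma called 0 with 2 at an unadjusted p under 0.05. Irf1, the interferon-induced factor that drives Psmb8, Psmb9 and Psmb10, had 6.5 and 8.85 FPKM in the controls and 0.96 and 0.6 FPKM with Nar, the largest fall of the list (log2 fold change -3.16 ± 0.42, limma adjusted p = 0.00427). Tap1 had 5 and 4.14 FPKM against 1.11 and 1.39 FPKM (log2 fold change -1.79 ± 0.39, limma adjusted p = 0.0160), and Tap2 had 3.37 and 2.04 FPKM against 0.72 and 0.96 FPKM (log2 fold change -1.55 ± 0.39, limma adjusted p = 0.0225). Erap1, which trims peptides for MHC class I, had the smallest change of the list, with 0.78 and 0.71 FPKM against 0.35 and 0.16 FPKM (log2 fold change -1.30, limma adjusted p = 0.0494). With 1 control library left out, where no gene of the 5339 was called, the log2 fold changes were -3.38 and -2.94 for Irf1 and -1.66 and -1.93 for Tap1. Psmb9, which shares its promoter region with Tap1, had a log2 fold change of -1.11 beside these.

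Markers of blood cell types moved with the comparison and are given beside the proteasome results, whose dependence on them was not tested. All 11 neutrophil markers fell, with a median log2 fold change of -3.77, and their summed FPKM was 1737 and 1436 in the controls and 105 and 164 with Nar. Of 8 monocyte markers, 5 fell (median -1.66), and of 6 tested NK cell markers 1 fell (median -1.24). Over all tested genes, 39.6% were called lower, and 0.356% after median-of-ratios scaling. Limma called 0 of the 17 tested erythroid markers, with 0 also at an unadjusted p under 0.05 and a median of 0.30. It called 0 of 8 T cell markers (2 at an unadjusted p under 0.05, median -0.45), 0 of 8 B cell markers (0 unadjusted, median -0.28) and 0 of 7 platelet markers (1 unadjusted, median -1.11). After median-of-ratios scaling the medians were -2.66 (neutrophil, 3 of 11 called lower), -0.57 (monocyte), -0.33 (NK cell), 0.0013 (platelet), 0.50 (T cell), 0.77 (B cell) and 1.38 (erythroid, 0 of 17 called by limma and 13 at an unadjusted p under 0.05). No marker with values was at 0 in all 4 libraries, so transcripts of each type were present. Of the 19 erythroid markers listed, 18 had values. The proteasome median of -1.08 lay below those of the erythroid, B cell and T cell lists and above those of the NK cell, monocyte and neutrophil lists. Platelet markers had a summed FPKM of 677 in Ctrl 1 and 2170 in Ctrl 3 against 576 and 443 with Nar, so Ctrl 3 stood apart in that list.

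**Figure D4:**
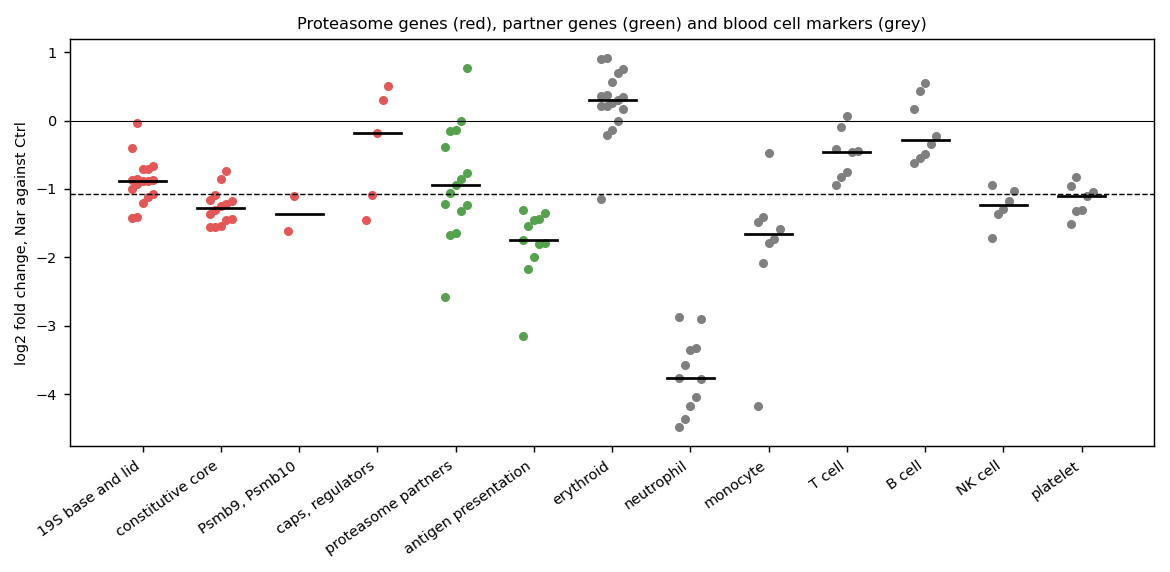
Log2 fold changes of Nar against control with 1 point per tested gene, for proteasome sets (red), related lists (green) and blood cell marker lists (grey), with list medians as bars and the median of all tested genes as a dashed line. Neutrophil markers have the lowest median (-3.77) and erythroid markers the highest (0.30), and the medians of the proteasome sets lie between.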

How the data were processed

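Blood RNA was sequenced in 4 libraries after oligo(dT) selection. Per gene and library, the authors deposited FPKM with 2 decimals, and the 4 expression columns were matched to the libraries by title, leaving 0 unmatched. The study's methods name bowtie-2 and DEGseq, while the submitters' processing notes name TopHat2, Cufflinks and GRCm38; which tools made the values is not given in the sources used here. Depth is unknown, since the lowest values showed no clear whole-read steps, and the number of libraries limits the precision. The table held 23136 genes, and the 5313 without any value were not used.

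Groups were compared by limma 3.58.1 (lmFit and trended eBayes, R 4.3.3) on log2(FPKM + 0.1), a scale that understates changes of low genes, over 5339 genes with a mean of at least 0.5 FPKM, with Benjamini-Hochberg adjustment over all of them. SE is from limma and every adjusted p without another name is limma's. The limma steps were tested before use on simulated data, where 200 of 5339 genes were changed by 3 on the log2 scale. All 200 were recovered, with 12 false calls. The simulated data held no shift shared by most genes, and the tested members changed by less than 3, so this does not measure how well their changes are called. Ratios were tested with an exact two-sided permutation test (scipy 1.17.1).

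The members and gene lists were chosen with earlier results of these data known. Genes were named by a rule: the catalytic, immunoproteasome, cap and untested members, the most abundant member and the highest and lowest log2 fold change of each subcomplex, the extremes of the related lists, and Tap1, Tap2, Pomp and Nfe2l1. The result of 1 gene that the rule takes is not reported here. Psmd14, Psmd1, Psma1, Psma3, Psma5 to Psma7, Psmb3, Psmb4, Psmc2, Psmc4, Psmc6, Psmd3, Psmd6, Psmd11 and Psmd12 were named after their values were seen. Positions are from GENCODE M21 on GRCm38, and promoter windows from RefSeq GRCm38.p6. Alternatives were pseudocounts of 1 and 0.01, no filter, a mean of at least 5 FPKM, no trend, a replicate block, each library left out, and values rescaled to TPM, after taking out haemoglobin genes, or by median-of-ratios factors. Plots were drawn with matplotlib 3.10.9.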

Additional observations from a re-analysis of the deposited data

How the results depend on the processing

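No proteasome member was called higher under any of the alternatives (limma, 0 to 2 at an unadjusted p under 0.05). The count of 17 members called lower became 0 with no filter (26 of 48 at an unadjusted p under 0.05), with haemoglobin genes removed and with median-of-ratios scaling, and 0 to 1 with a library left out. A mean of at least 5 FPKM kept only 5 members, none of them among the 17, so its count of 0 (0 at an unadjusted p under 0.05) was set by the filter. Over all genes, 2113 lower calls became 0 with no filter, 116 at a mean of at least 5 FPKM, 242 without haemoglobin genes, 19 with median-of-ratios scaling and 0 to 254 with a library left out. The 10 higher calls became 0, 1, 6 (TPM), 6 (median-of-ratios), 4 (no trend) and 0 to 5 (a library left out). A library left alone in its group was assumed to vary like the other group, and such a test has fewer samples.

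The libraries share the numbers 1 and 3, but same-numbered deviations correlated at -0.15, so the numbers were not taken as pairs. With the replicate block, 10 members were called (9 of the 17), beside 33.8% of all genes. With the numbers crossed, chosen after seeing the data, 26 members and 3211 genes (60.1%) were called lower and 22 genes higher.

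Median log2 fold changes moved with the scaling, and the cause is in its construction where libraries were rescaled. With a pseudocount of 1 they were -0.62 for all tested genes, -0.68 for all members, -0.89 for the alpha ring, -0.88 for the beta ring, -0.55 for the base ATPases, -0.40 for the base non-ATPases and -0.54 for the lid, and with 0.01 they were -1.49 for the alpha ring and -1.04 for the base ATPases. Without haemoglobin genes they were, in the same order, -0.61, -0.56, -0.93, -0.72, -0.49, -0.36 and -0.35, and 0.10 for the chaperones and 0.35 for the caps. With median-of-ratios scaling they were -0.061, -0.010, -0.36, -0.16, 0.053, 0.17 and 0.19, and 0.56 and 0.82 for chaperones and caps. No filter gave -0.57 for all genes, and a mean of at least 5 FPKM gave -0.94 for all genes, -0.043 for all members and for the base non-ATPases and 0.30 for the caps. With a library left out the ranges were -1.22 to -0.93 (all genes), -1.20 to -0.93 (members), -1.50 to -1.05 (alpha), -1.37 to -1.05 (beta), -1.14 to -0.84 (base ATPases), -0.89 to -0.59 (base non-ATPases), -1.17 to -0.75 (lid), -0.57 to -0.24 (chaperones) and -0.52 to 0.14 (caps). The core minus 19S difference of -0.38 ranged from -0.45 to -0.32 and was -0.37 and -0.36 with pseudocounts of 0.01 and 1.

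With median-of-ratios scaling the log2 fold change turned above 0 for these genes: Psme1 0.012, Psme4 0.82, Psma2 0.22, Psmb2 0.32, Psmc3 0.15, Psmc5 0.61, Psmd4 1.06, Psmd2 0.17, Psmd8 0.21, Psmd7 0.29, Psmg4 0.53, Psmd10 0.59, Psmc2 0.11, Psmd1 0.11, Psmd11 0.17, Psmd14 0.30, Psmd6 0.30, Nfe2l1 0.10, Vcp 0.93 and Usp14 0.99. Without haemoglobin genes it changed for Psme4 (0.35), Psmc5 (0.12), Psmd4 (0.52), Psmg4 (0.067) and Psmd10 (0.13). With a library left out it changed for Psme4 (0.14 without Ctrl 3, 0.09 without Nar 3), Psmf1 (from -0.40 without Ctrl 1 to 1.41 without Ctrl 3) and Psmd4 (from -0.56 without Ctrl 1 to 0.47 without Ctrl 3, and 0.05 without Nar 1). The log2 ratio of Psmb10 to Psmb7 ranged from -0.74 to 0.094 and that of Psmb9 to Psmb6 from 0.13 to 0.54. Rounding to 2 decimals limits members such as Psmg1.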

Other observations

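Further partners included genes around p97, the ATPase that pulls ubiquitylated proteins out of complexes and membranes. These genes were chosen after their values were seen, and differences between them were not tested. Vcp, which encodes p97, had 5.14 and 7.42 FPKM in the controls and 7.23 and 4.22 FPKM with Nar, and the groups overlapped (log2 fold change -0.16, limma adjusted p = 0.783). Its cofactors Ufd1 (1.28 and 1.65 against 0.55 and 0.49 FPKM; log2 fold change -1.33, limma adjusted p = 0.0241) and Nploc4 (1.08 and 1.49 against 0.62 and 0.5 FPKM; log2 fold change -1.06, limma adjusted p = 0.0447) both fell on the deposited scale. With median-of-ratios scaling these changes were 0.93 for Vcp, -0.34 for Ufd1 and -0.07 for Nploc4, and none of the 3 passed the test (limma adjusted p = 0.437, 0.781 and 0.981).

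The shuttle Rad23b had 1.67 and 1.69 FPKM in the controls and 0.67 and 0.65 FPKM with Nar and fell (log2 fold change -1.23, limma adjusted p = 0.0260). Of 2 proteins that sit on the 19S particle, the ubiquitin receptor Adrm1 fell, with 2.35 and 2.16 FPKM against 0.78 and 1.05 FPKM (log2 fold change -1.23, limma adjusted p = 0.0308). The deubiquitinase Usp14 had 0.9 and 1.03 FPKM against 1.07 and 0.85 FPKM, a log2 fold change of -0.01. With median-of-ratios scaling these changes were -0.22 for Rad23b, -0.19 for Adrm1 and 0.99 for Usp14, none past the threshold (limma adjusted p = 0.899, 0.941 and 0.204).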
